A study of Mus musculus with 3 samples.

Results

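The genes described here encode the translation initiation factors (eIFs) and elongation factors (eEFs) of the mouse, with the kinases, binding proteins and modifying enzymes that carry their names. They were taken by symbol, Eif or Eef followed by a digit, without the 9 entries marked as pseudogenes (-ps), which gave 69 of the 54838 genes listed. Their levels were read in thymus sections of mice without p53 and of a mouse with p53, and set beside the share of ribosomal protein genes (RPGs, the 76 cytosolic Rpl and Rps genes). The question was whether elongation factors followed that share while initiation factors did not.

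The study profiled whole thymus on BMKMANU S1000 slides, a spatial method that captures RNA on barcoded spots and counts each captured molecule once by its unique molecular identifier (UMI). Each of the 3 sections came from 1 female C57BL/6 mouse that had been perfused with PBS. They were a Trp53-/- mouse of 21 weeks (KO1308), a Trp53-/- mouse of 17 weeks (KO1134) and a Trp53+/+ mouse of 17 weeks (WT), with ages as the labels give them. The study's sources do not give the same age for the WT mouse. The deletion is constitutive and affects every cell of the KO mice, which the study treats as pre-neoplastic. The KO sections were permeabilised for 27 min and the WT section for 25 min, so that genotype, permeabilisation time and library cannot be told apart. With 1 WT section there is no test between genotypes. Each KO section is set beside WT with a 95% interval that covers counting error only. How far mice differ can be seen only from the 2 KO sections.

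Translation begins when eIF2 brings the initiator tRNA to the small ribosomal subunit, eIF3 and the eIF4 proteins load that subunit on a capped mRNA, eIF1, eIF1A and eIF5 select the start codon, and eIF5B joins the large subunit. eEF1A then delivers each aminoacyl-tRNA, the eEF1B subunits recharge eEF1A with GTP, and eEF2 moves the ribosome by a codon. Most mRNAs of ribosomal proteins and of elongation factors begin with a 5′ terminal oligopyrimidine tract, an unbroken run of C and T in the gene, through which mTORC1 and LARP1 control their translation and stability together. Developing T cells pass through phases of fast division and of rest in the thymic cortex, and protein synthesis is known to differ between them.

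Of the 69 members, 53 had at least 1 start site in the RefSeq promoter table (GRCm38.p6). The sequences below span 10 bases before and 20 bases from the RefSeq start of 5 members, 3 elongation factors and, for contrast, an eIF3 subunit and an eIF4A helicase. Capitals mark the longest run of C or T within a window of 40 bases around the start, and each sequence is given 5′ to 3′ on the strand of its gene.
Eef1a1, chr9:78481705-78481734, minus strand: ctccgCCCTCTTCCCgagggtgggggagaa
Eef2, chr10:81176621-81176650, plus strand: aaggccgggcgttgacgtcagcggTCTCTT
Eef1b2, chr1:63176821-63176850, plus strand: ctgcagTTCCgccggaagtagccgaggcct
Eif3f, chr7:108934405-108934434, plus strand: tctaggCTCTCTCTCTTTCTCggcaagatg
Eif4a2, chr16:23107458-23107487, plus strand: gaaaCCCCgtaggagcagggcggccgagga
The longest run in the window was 10 bases in Eef1a1 and 15 in Eif3f, and 6 in Eef2 and 4 in both Eef1b2 and Eif4a2. The run of Eef2 reached the last base of the window, so that 6 is a lower limit of its length. A run of at least 8 C or T stood in 16.0% of all 32851 starts, in 16 of the 68 starts of members (23.5%), in 8 of the 35 starts of initiation factors (22.9%) and in 29 of the 66 starts of RPGs (43.9%). Among elongation factors, 2 of the 4 genes in the table had such a run within the window (Eef1a1 and Eef1a2), where the run of Eef2 was cut. The palindrome CACGTG, searched in the whole window of 300 bases, stood in 15 of the 68 starts of members (22.1%), against 7.15% of all starts and 12.1% of RPG starts. A match describes these letters only, and a RefSeq start can lie some bases from the start used in thymus.

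In each section, spots were pooled in bins of 27 µm, which can hold several cells of different types, and bins with at least 300 genes were kept. The sections held 17585464 to 40575395 UMIs in 12009 to 27104 tissue bins, and thymus bins had a median of 842 UMIs in KO1308, 2654 in KO1134 and 1429 in WT. Of the 333977 to 833765 spot barcodes with UMIs in each section, 5486 to 13503 were shared between any 2 sections. Trp53 itself gave 24.7 counts per 1000000 UMIs (CPM, the scale of all levels here) in KO1308, 14.5 in KO1134 and 80.1 in WT in the thymus area, below WT in both KO mice but not at 0. The 6 thymus genes used as a check of the tissue (Themis, Arpp21, Ptcra, Cd8b1, Prss16 and Psmb11) were all detected, at a summed 1723, 792 and 2166 CPM. The KO thymus area held less T cell RNA (Cd3d, Cd3e and Cd3g at 893, 625 and 1461 CPM), and more RNA of the 6 adipocyte genes (669, 550.1 and 99.3 CPM), the 3 B cell genes (90.0, 83.7 and 38.6 CPM) and the 4 myeloid genes (802, 1262 and 564 CPM), all detected in each section. Of the 3 sections, only the KO sections had B-gene-rich bins (449 and 1959) and adipocyte-gene-rich bins (648 and 742), where genes of those cells outweighed the thymus genes or passed a set level, and which were kept apart from the thymus area. In pooled bins, fewer cells of a type and less RNA per cell cannot be told apart. The part of these differences in the values below was not tested, and bins with Cd3 RNA are given beside the main values.

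In the thymus area, the summed elongation factors stood a little above WT in both KO sections, while the summed initiation factors stood below WT. The RPGs were well above WT in KO1134 alone. The 6 elongation factors summed to 4327 CPM in KO1308, 4775 in KO1134 and 4185 in WT. The 2 KO sections were thus 1.03 times (1.02 to 1.04) and 1.14 times (1.13 to 1.15) the WT level, a mean of 1.09 ± 0.0757 (SD, n = 2 KO sections). The 40 core initiation factors summed to 6819 CPM in KO1308, 7307 in KO1134 and 7826 in WT, with ratios of 0.871 (0.865 to 0.878) and 0.934 (0.928 to 0.939). Their mean was 0.902 ± 0.0440 (SD, n = 2), so that the 2 sums lay on opposite sides of WT in both KO mice. Eif1 and Eif4g2, the initiation factors with the most UMIs, were well below WT in both and weigh heavily on their sum. Taking the levels of these 2 genes, given below, from the sums leaves KO1134 above WT and KO1308 below it. The side of WT in KO1134 thus rested on these 2 genes. By single genes, the median initiation factor was not below WT in KO1134, as given below.

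The RPG share was 10.3% of UMIs in KO1308, 13.98% in KO1134 and 9.75% in WT, or 1.06 and 1.43 times WT. The elongation factors therefore had the same order of the 3 sections as the RPGs, at a much smaller distance in KO1134. Between the 2 KO sections, KO1134 was 1.35 times KO1308 for RPGs, 1.10 times for elongation factors and 1.07 times for initiation factors. Elongation and initiation factors differed less from each other than either did from the RPGs in that comparison.

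Bins with Cd3 RNA gave elongation ratios of 1.02 and 1.19, initiation ratios of 0.873 and 0.924, and RPG ratios of 1.03 and 1.49. Bins of 800 to 2000 UMIs, which bring the depths of the sections together, gave 1.09 and 1.14 for elongation, 0.888 and 0.878 for initiation, and 1.10 and 1.58 for RPGs. The sides of WT were thus the same in both sets of bins, but neither set is alike across sections. The Cd3 limit is relative to depth, so that the deeper bins of KO1134 needed more Cd3 UMIs to pass. The range of 800 to 2000 UMIs lies below the median thymus bin of KO1134 (2654), whereas that of KO1308 (842) is near its lower end. Cortex-gene-rich bins brought elongation factors in KO1308 to WT, at 0.996, and KO1134 stood at 1.11.

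**Figure D1:**
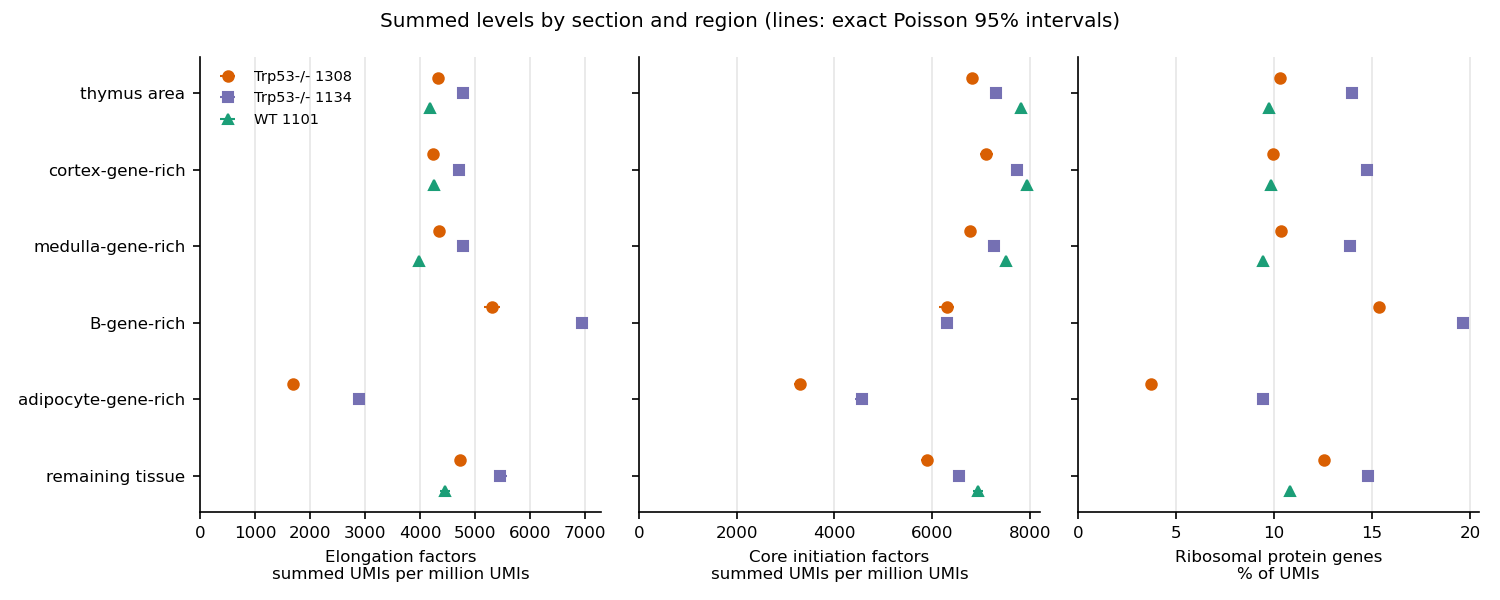
Summed levels of elongation factors and of core initiation factors (CPM) and the share of ribosomal protein genes (% of UMIs) by region, 1 point per section with exact Poisson 95% intervals, mostly smaller than the points. WT is lowest for elongation factors (4185) and highest for initiation factors (7826) in the thymus area, and the B-gene-rich bins have the highest elongation levels.

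By single genes, the members were spread on both sides of WT. A level at least 25% above the reference, or at least 20% below it (the same fold), was used as the limit of size. Of the 65 members with at least 100 UMIs over the 3 thymus areas, 13 (20.0%) were at least 25% higher and 14 (21.5%) at least 20% lower in KO1308 than in WT, where 43.2% and 21.8% of all 16750 genes so evaluated were higher and lower. In KO1134, 15 members (23.1%) were higher and 13 (20.0%) lower, where 37.3% and 30.9% of all genes were. The share of members that were higher lay below the share of all genes in each of these comparisons, which have the WT section in common. The median ratio of members was 0.99 in KO1308 and 1.06 in KO1134, beside 1.14 and 1.04 over all genes.

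Eef1a1, the main carrier of aminoacyl-tRNA, had 1835 CPM in KO1308, 2112 in KO1134 and 1793 in WT. KO1134 was thus 1.18 times WT (1.16 to 1.19), and KO1308 was 1.02 times (1.01 to 1.04), close to WT. Eef2, the translocase, had 1180, 1285 and 1205 CPM, with ratios of 0.979 (0.962 to 0.997) and 1.07 (1.05 to 1.08), on either side of WT.

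The exchange factor subunits differed more, and not all in 1 direction. Eef1b2, which returns GTP to eEF1A, had 742 CPM in KO1308, 680 in KO1134 and 606 in WT, higher in both KO sections at 1.22 and 1.12 times. Eef1d, a second exchange subunit, had 230, 234 and 174 CPM, the largest ratios of the group at 1.32 and 1.34. It was the 1 elongation factor of the 5 evaluated that passed the limit, in each KO section. Of all genes, 43.2% were higher past it in KO1308 and 37.3% in KO1134. Eef1g, the scaffold subunit, had 339 CPM in KO1308, 463 in KO1134 and 406 in WT, so that it was below WT in KO1308 (0.834, 0.808 to 0.862) and above it in KO1134 (1.14, 1.11 to 1.17).

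Eef1a2, the form of eEF1A of muscle and nerve, was near the floor in thymus, with 8 UMIs in KO1308, 13 in KO1134 and 2 in WT, and no fold is given for it. Heart muscle genes were at 44.1, 3.48 and 1.43 CPM in the same bins, and their part in it was not tested. Eif5a, which helps ribosomes past stalling peptide bonds and acts mainly in elongation, had 523 CPM in KO1308, 547 in KO1134 and 502 in WT (1.04 and 1.09 times). Its relative Eif5a2 had 7.65, 9.0 and 7.03 CPM, with intervals that included 1 in KO1308 (0.860 to 1.37) but not in KO1134 (1.06 to 1.54).

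By their sums, the initiation factors differed by role, with start site factors and eIF4 proteins below WT and eIF3 above it. Of the 38 core initiation factors evaluated, 8 were at least 25% higher and 11 at least 20% lower in KO1308, with 7 and 9 in KO1134. Of all genes, 43.2% were higher and 21.8% lower in KO1308, and 37.3% and 30.9% in KO1134. The share of initiation factors that were lower was thus above that of all genes in KO1308 and below it in KO1134. Their median ratios were 0.92 and 1.04. The sum is thus below WT in both sections although the median in KO1134 is not, since the members with the most UMIs were among the lower ones.

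The 6 factors of start site selection and subunit joining summed to 1224 CPM in KO1308, 1426 in KO1134 and 1879 in WT, or 0.651 and 0.759 times WT. Eif1, the gatekeeper of start codon choice, had 592, 727 and 1073 CPM, with ratios of 0.552 (0.539 to 0.565) and 0.677 (0.665 to 0.689). Its paralogue Eif1b had 92.4, 72.3 and 147 CPM, at 0.630 and 0.493 times WT. Both KO mice were below WT for this pair, by more than they differed from each other. Eif1a, named after its values were seen because it went the other way in KO1134 alone, had 84.8 CPM in KO1308, 155 in KO1134 and 89.1 in WT.

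Among eIF2 subunits, Eif2s3x, the X-linked GTP-binding subunit, had 231 CPM in KO1308, 341 in KO1134 and 354 in WT, at 0.651 times WT in the first and 0.963 in the second. Eif2s3y, the Y-linked relative of Eif2s3x, had 0, 1 and 0 UMIs in these female mice. Eif2s1, the alpha subunit that the stress kinases phosphorylate, had 96.4, 118 and 147 CPM, at 0.655 and 0.8002 times. Not all subunits were lower. Eif2s2, named after its values were seen, had 62.3 CPM in KO1308 and 70.9 in KO1134. Its levels were also read in the thymus area tiles of lowest and highest RPG share (described below). They were 49.9 and 76.0 CPM in KO1308, 74.5 and 74.0 in KO1134, and 43.8 and 50.4 in WT. WT was the lowest in each set of tiles. The eIF2B complex, which recycles eIF2, summed to 235, 226 and 207 CPM (1.13 and 1.09 times). Within it, Eif2b3, part of its catalytic core, had 22.5 CPM in KO1308, 34.6 in KO1134 and 11.2 in WT. It had the largest ratio to WT of all members evaluated in KO1134, at 3.09 (2.74 to 3.48), and the second largest in KO1308, at 2.01 (1.73 to 2.33).

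eIF3, the largest initiation complex, summed above WT in both KO sections, with 2093 CPM in KO1308, 2398 in KO1134 and 1894 in WT (1.10 and 1.27 times). In KO1308, 4 of its 14 genes were at least 25% higher and 2 at least 20% lower, and in KO1134 4 were higher and 0 lower, with medians of 1.07 and 1.21. The share of eIF3 genes that were higher was thus below that of all genes (43.2% and 37.3%) in both sections. Eif3b, the scaffold of the complex, had 235, 232 and 105 CPM, at 2.25 times WT (2.15 to 2.36) and 2.22 times (2.13 to 2.32). Eif3l had 152, 139 and 102 CPM, at 1.497 and 1.37 times. Without Eif3b, the eIF3 sum was 1.04 times WT (1.02 to 1.053) in KO1308 and 1.21 times (1.20 to 1.22) in KO1134, so that much of the distance in KO1308 was that of 1 gene.

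The eIF4 group, which binds the cap and unwinds the mRNA leader, summed to 2878 CPM in KO1308, 2728 in KO1134 and 3298 in WT (0.873 and 0.827 times). Eif4g2, an eIF4G relative that lacks the cap-binding protein's docking site, made up most of that difference, with 952, 871 and 1266 CPM (0.751 and 0.688 times). The canonical scaffold Eif4g1 had 277, 284 and 289 CPM and stood closer to WT, at 0.957 and 0.982 times, and Eif4g3 had 92.9, 84.3 and 107 CPM, at 0.865 and 0.785 times. The cap-binding protein Eif4e itself had 90.8, 73.5 and 87.0 CPM, within counting error of WT in KO1308 (0.978 to 1.12) and below it in KO1134 (0.796 to 0.897). Eif4e3, an atypical cap binder, was the lowest member in KO1134, with 23.6 CPM in KO1308, 11.8 in KO1134 and 31.3 in WT (0.754 and 0.376 times).

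The helicase Eif4a1 had 475, 455 and 513 CPM (0.925 and 0.887 times) and its paralogue Eif4a2 had 300, 250 and 334 CPM (0.896 and 0.746 times), both lower in both KO sections. Their cofactors differed from them. Eif4b had 255 CPM in KO1308, 329 in KO1134 and 320.0 in WT, lower in KO1308 alone, and Eif4h had 355, 311 and 272 CPM, higher in both (1.31 and 1.15 times). Of the 10 eIF4 genes evaluated, 4 were at least 20% lower in KO1308 and 5 in KO1134, where 21.8% and 30.9% of all genes were. Higher by at least 25% were 1 and 0, where 43.2% and 37.3% of all genes were. Eif4e1b, an oocyte form, had 0, 7 and 1 UMIs.

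**Figure D2:**
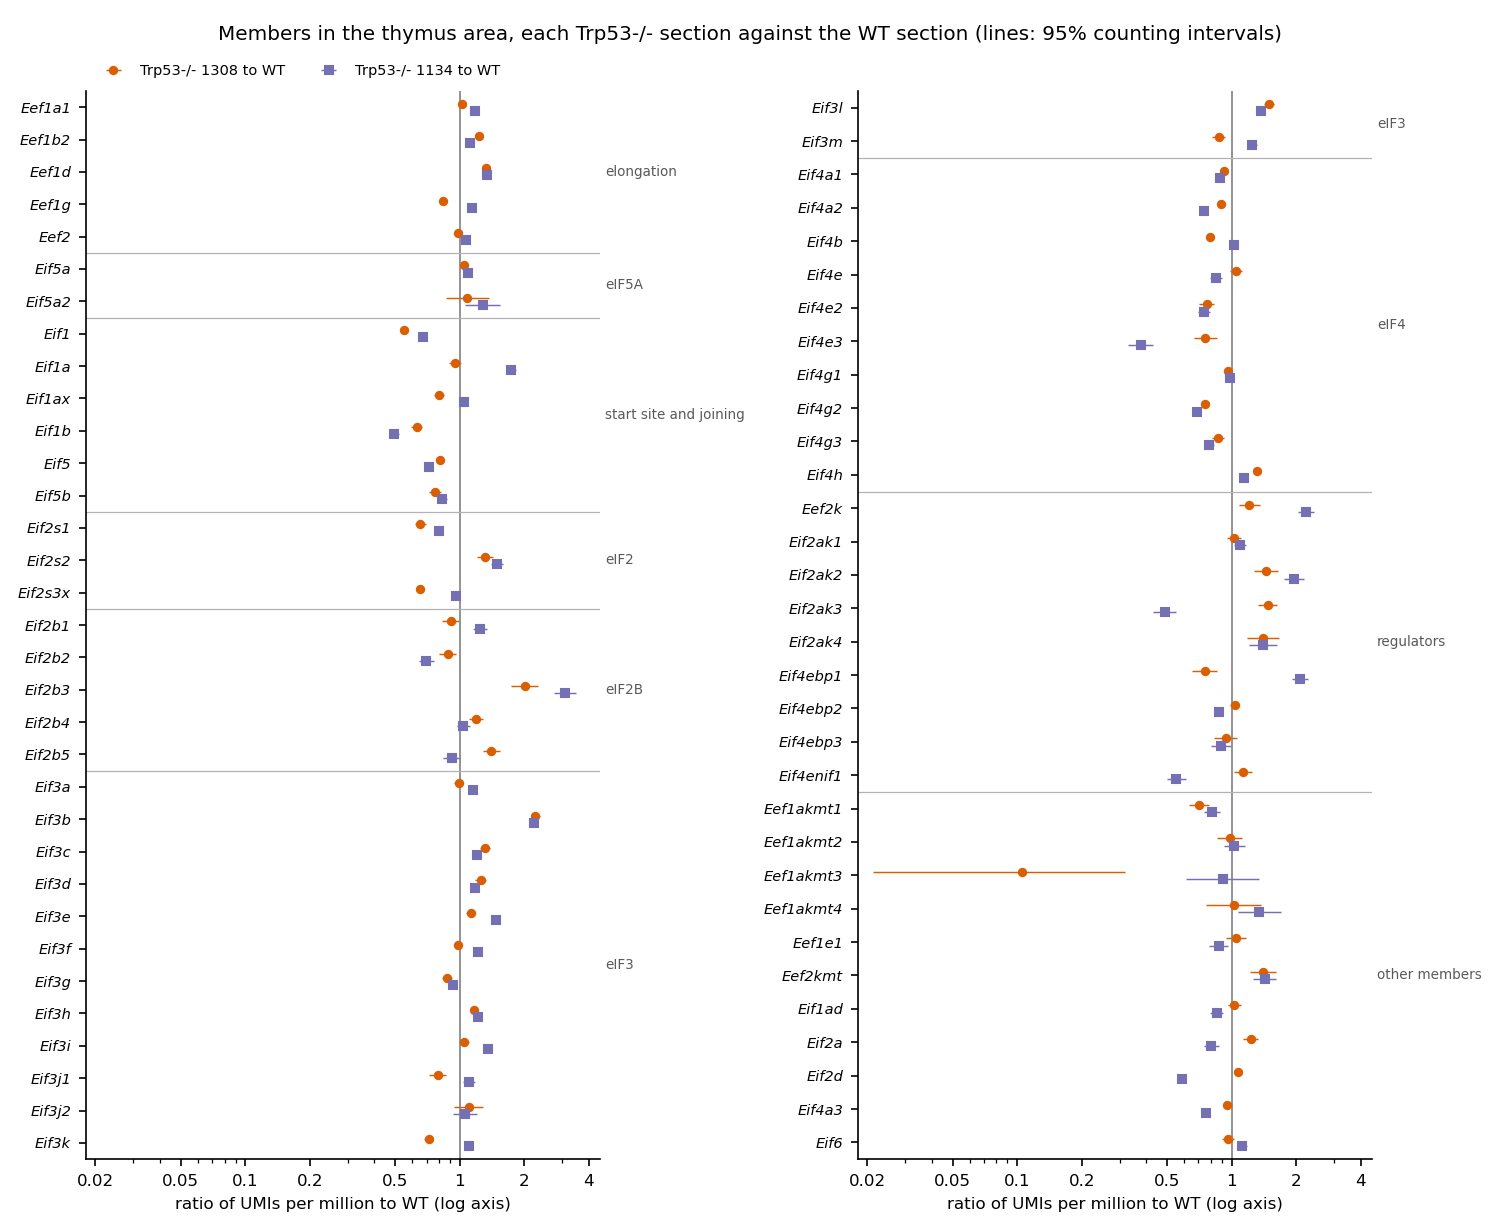
Ratio of each evaluated member's level in the thymus area of each Trp53-/- section to the WT section (log axis), grouped by role, with 95% counting intervals. Eif1 and Eif1b lie left of 1 and Eif3b and Eif2b3 right of it in both sections, while Eif2ak3, Eif4ebp1 and Eef1g lie on opposite sides.

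The regulators of initiation and elongation summed to 449 CPM in KO1308, 441 in KO1134 and 413 in WT, and some of them differed more between the 2 KO mice than from WT. Eif2ak3 (PERK), the kinase of endoplasmic reticulum stress, had 43.4 CPM in KO1308, 14.4 in KO1134 and 29.5 in WT, which put it above WT in the first mouse (1.47, 1.33 to 1.62) and below it in the second (0.488, 0.430 to 0.553). Eif4ebp1, the mTORC1-controlled inhibitor of eIF4E, went the other way, with 18.9 CPM, 52.6 CPM and 25.3 CPM (0.749 and 2.08 times). Eif4enif1, which carries eIF4E to the nucleus, had 44.1, 21.7 and 39.2 CPM, at 1.13 and 0.553 times WT. For these 3 genes the KO mice thus lay on opposite sides of WT.

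Eif2ak2 (PKR), the interferon-induced kinase of double-stranded RNA, had 24.9 CPM in KO1308, 33.6 in KO1134 and 17.2 in WT, higher in both KO sections (1.45 and 1.96 times). Eif2ak4 (GCN2), the amino acid sensor, was also higher in both, with 14.7, 14.7 and 10.5 CPM (1.40 times in each). Eif2ak1, the haem-regulated kinase, stood near WT, with 69.0, 73.8 and 67.4 CPM. Eef2k, the kinase that switches off eEF2, had 31.2 CPM in KO1308, 57.1 in KO1134 and 25.7 in WT, at 1.21 (1.08 to 1.36) and 2.22 times (2.04 to 2.41). Eif4ebp2 had 179, 151 and 173 CPM and Eif4ebp3 had 23.6, 22.4 and 25.1 CPM, all within 0.871 to 1.03 times WT.

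Of the 11 other members evaluated, 1 was higher and 2 lower past the limit in KO1308, and 2 and 2 in KO1134. Over all genes, 43.2% were higher and 21.8% lower in KO1308, and 37.3% and 30.9% in KO1134. Eif6, which keeps free large subunits from joining, had 88.8, 104 and 92.4 CPM (0.961 and 1.12 times). Eif2d, a noncanonical initiator tRNA carrier, had 222 CPM in KO1308, 121 in KO1134 and 208 in WT, near WT in the first and 0.584 times WT in the second. Eef1akmt3, a lysine methyltransferase of eEF1A, had only 3 UMIs in KO1308 against 42 in KO1134 and 79 in WT, a ratio of 0.105 with an interval from 0.0212 to 0.319. Eif2c5 had 0 UMIs in every section, which at 3 UMIs allows up to 0.216 CPM in KO1308, 0.134 in KO1134 and 0.0782 in WT.

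Elongation and initiation factors were also compared within each section. Tiles of 270 µm were ranked by their RPG share, and the 25% of tiles with the highest share (high tiles) were set beside the 25% with the lowest (low tiles), with no use of the WT section as a reference. The tiles numbered 165 in KO1308, 116 in KO1134 and 287 in WT. The RPG share went from 6.81% in the low to 13.4% in the high tiles of KO1308, from 12.02% to 19.6% in KO1134 and from 7.30% to 11.9% in WT, by construction.

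Elongation factors went from 3318 to 5004 CPM in KO1308, from 4342 to 6694 in KO1134 and from 3492 to 4709 in WT. Those are folds of 1.51 (1.48 to 1.54), 1.54 (1.52 to 1.56) and 1.35 (1.33 to 1.37), a mean of 1.47 ± 0.103 (SD, n = 3 sections). Initiation factors had folds of 1.18, 0.959 and 0.994, a mean of 1.04 ± 0.120 (SD, n = 3). The elongation fold was thus the higher of the pair in each of the 3 sections, with or without p53. As a description across tiles, which share a library and differ in depth, Spearman's rho between elongation factors and the RPG share was 0.824 in KO1308, 0.773 in KO1134 and 0.880 in WT, and for initiation factors 0.175, -0.240 and -0.0593.

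**Figure D3:**
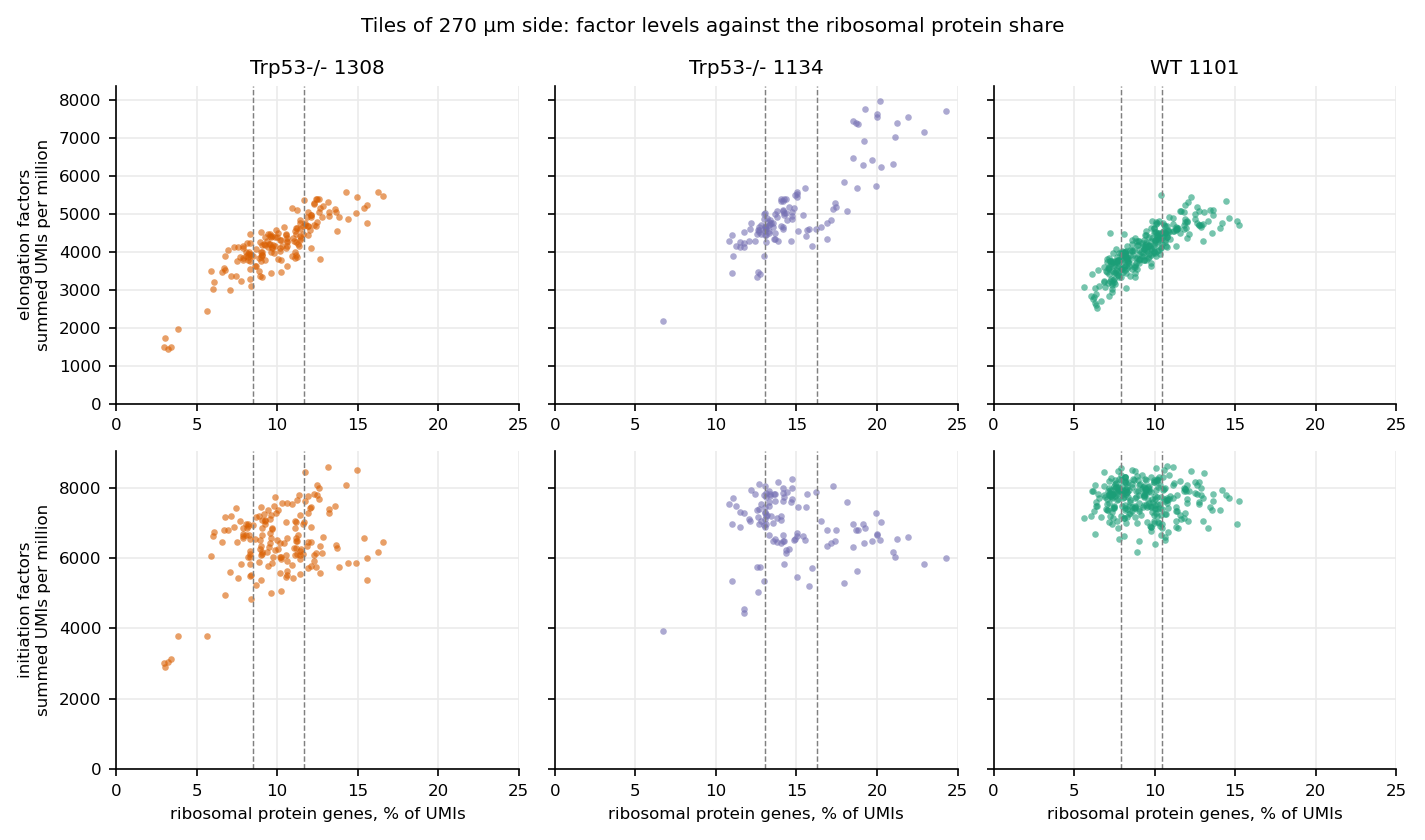
Summed level of elongation factors (top) and core initiation factors (bottom), in CPM, against the ribosomal protein share (% of UMIs), 1 point per tile of 270 µm in each section, with dashed lines at the limits of the low and high tiles. Elongation factors climb along the axis in all 3 sections while initiation factors lie flat in WT, and the lowest points at the left of the KO sections are poor in both.

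Part of the range of tiles lay outside the thymus. In KO1134, 56.0% of bins in the high tiles were B-gene-rich and 16.9% of bins in the low tiles were adipocyte-gene-rich, and in KO1308 the shares were 9.64% and 13.6%. WT had neither. With thymus area bins alone (136, 82 and 252 tiles), the elongation folds were 1.27 in KO1308, 1.11 in KO1134 and 1.36 in WT, with rho of 0.748, 0.477 and 0.885, and the initiation folds were 1.09, 1.005 and 1.012. Without those bins the elongation fold was smaller in both KO sections, most so in KO1134, and about the same in WT. Depth moved with the RPG share as well, with rho of 0.342, 0.0938 and 0.400 between the share and UMIs per bin. Initiation factors correlated with UMIs per bin about as closely as elongation factors did (0.383, 0.381 and 0.570 against 0.423, 0.305 and 0.501), and the part of depth was not tested further.

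By gene, the fold lay in eEF1A and part of its exchange factor. Of the 5 elongation factors, 4 were at least 25% higher in the high tiles in KO1308, 3 in KO1134 and 3 in WT, where 27.1%, 18.0% and 14.7% of 15311 genes were, and 0 were at least 20% lower, where 23.8%, 42.0% and 27.5% of genes were. Eef1a1 had 1307 and 2299 CPM in the low and high tiles of KO1308, 1912 and 3429 in KO1134, and 1373 and 2113 in WT, with folds of 1.76, 1.79 and 1.54. Eef1g had folds of 1.66, 1.65 and 1.45, and Eef1b2 of 1.77, 1.64 and 1.29. These were the 3 members with the largest mean folds of all 64 evaluated over tiles of all tissue, an order that was lost with thymus area bins alone. Eef2 was nearly level at 1.07, 1.14 and 1.13, and Eef1d had 1.31, 1.05 and 1.18, so that the elongation group was split. Without Eef1a1 the group fold was 1.345, 1.34 and 1.23. With thymus area bins alone, 3, 0 and 3 of the 5 were past the limit upwards and 0 downwards, where 17.3%, 8.92% and 12.7% of 14601 genes were higher and 33.3%, 23.9% and 32.3% lower. Eef1a1 then had folds of 1.48, 1.14 and 1.56, Eef1b2 of 1.45, 1.248 and 1.27, and Eef1g of 1.29, 1.12 and 1.47. Eif2s1 (1.77, 0.968 and 1.35) and Eif3e (1.47, 1.23 and 1.38) then had larger mean folds than Eef1b2 and Eef1g, and Eif3h was above all 3 in KO1134 (1.26).

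Past the limit of size, the initiation factors had no common direction over the tiles of all tissue. Of 38, 15 were higher and 1 lower in KO1308, 2 and 15 in KO1134, and 6 and 2 in WT. Over all genes, 27.1%, 18.0% and 14.7% were higher and 23.8%, 42.0% and 27.5% lower. The median folds of initiation factors were 1.18, 0.88 and 1.01. Each was above the median of all genes (1.01, 0.87 and 0.92), narrowly so in KO1134. With thymus area bins alone, 10 were higher and 3 lower in KO1308, 1 and 1 in KO1134, and 7 and 0 in WT. Most of the lower calls in KO1134 were thus lost. Of all genes, 17.3%, 8.92% and 12.7% were then higher and 33.3%, 23.9% and 32.3% lower. The median folds of initiation factors were 1.08, 0.997 and 1.03, again above those of all genes (0.906, 0.931 and 0.889). eIF3 had group folds of 1.29, 0.980 and 1.16, above the eIF4 group in every section (1.13, 0.914 and 0.924). With thymus area bins alone eIF3 was above 1 in all 3 sections (1.19, 1.08 and 1.19) and eIF4 stood at 1.03, 0.969 and 0.935. Among eIF3 genes, Eif3e (1.69, 1.14 and 1.32) and Eif3f (1.34, 1.11 and 1.28), named after their values were seen, were above 1 in all 3 sections, and Eif3b was not (1.62, 0.632 and 0.971). In thymus area bins Eif3b stood at 1.66, 1.07 and 0.990.

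Over the tiles of all tissue, some members stood lower where RPGs were higher. Eef2k had folds of 0.595, 0.335 and 0.891, Eif4e3 of 0.501, 0.617 and 0.776, and Eif2b4, a regulatory subunit of eIF2B, of 0.811, 0.721 and 0.798. All of these were below 1 in the 3 sections, although the interval for Eef2k in WT included 1 (0.742 to 1.07). With thymus area bins alone, Eef2k had folds of 0.534, 0.802 and 0.903 and Eif4e3 of 0.534, 0.9004 and 0.843, nearer to 1 in KO1134, and Eif2b4 was on the other side of 1 there (0.791, 1.06 and 0.814). Eif4ebp1 had folds of 0.273 in KO1308, 0.597 in KO1134 and 1.07 in WT over all tissue. That direction turned with thymus area bins alone, where it stood at 1.49 (0.973 to 2.33), 1.13 (0.946 to 1.35) and 1.03. Eif2ak2 was lower in KO1134 and WT (0.502 and 0.771), and in thymus area bins it was below 1 in each section (0.767, 0.423 and 0.652), with an interval that included 1 in KO1308 (0.560 to 1.05). Eif5a was higher in KO1308 and WT (1.35 and 1.28) and lower in KO1134 (0.771), and in thymus area bins KO1134 was within counting error of 1 (0.981, 0.929 to 1.03). Eif5a2 and Eef1akmt4, a methyltransferase of eEF1A, were among the 5 largest mean folds over all tissue on 335 and 218 UMIs, with intervals that reached 0.744 and 0.509.

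**Figure D4:**
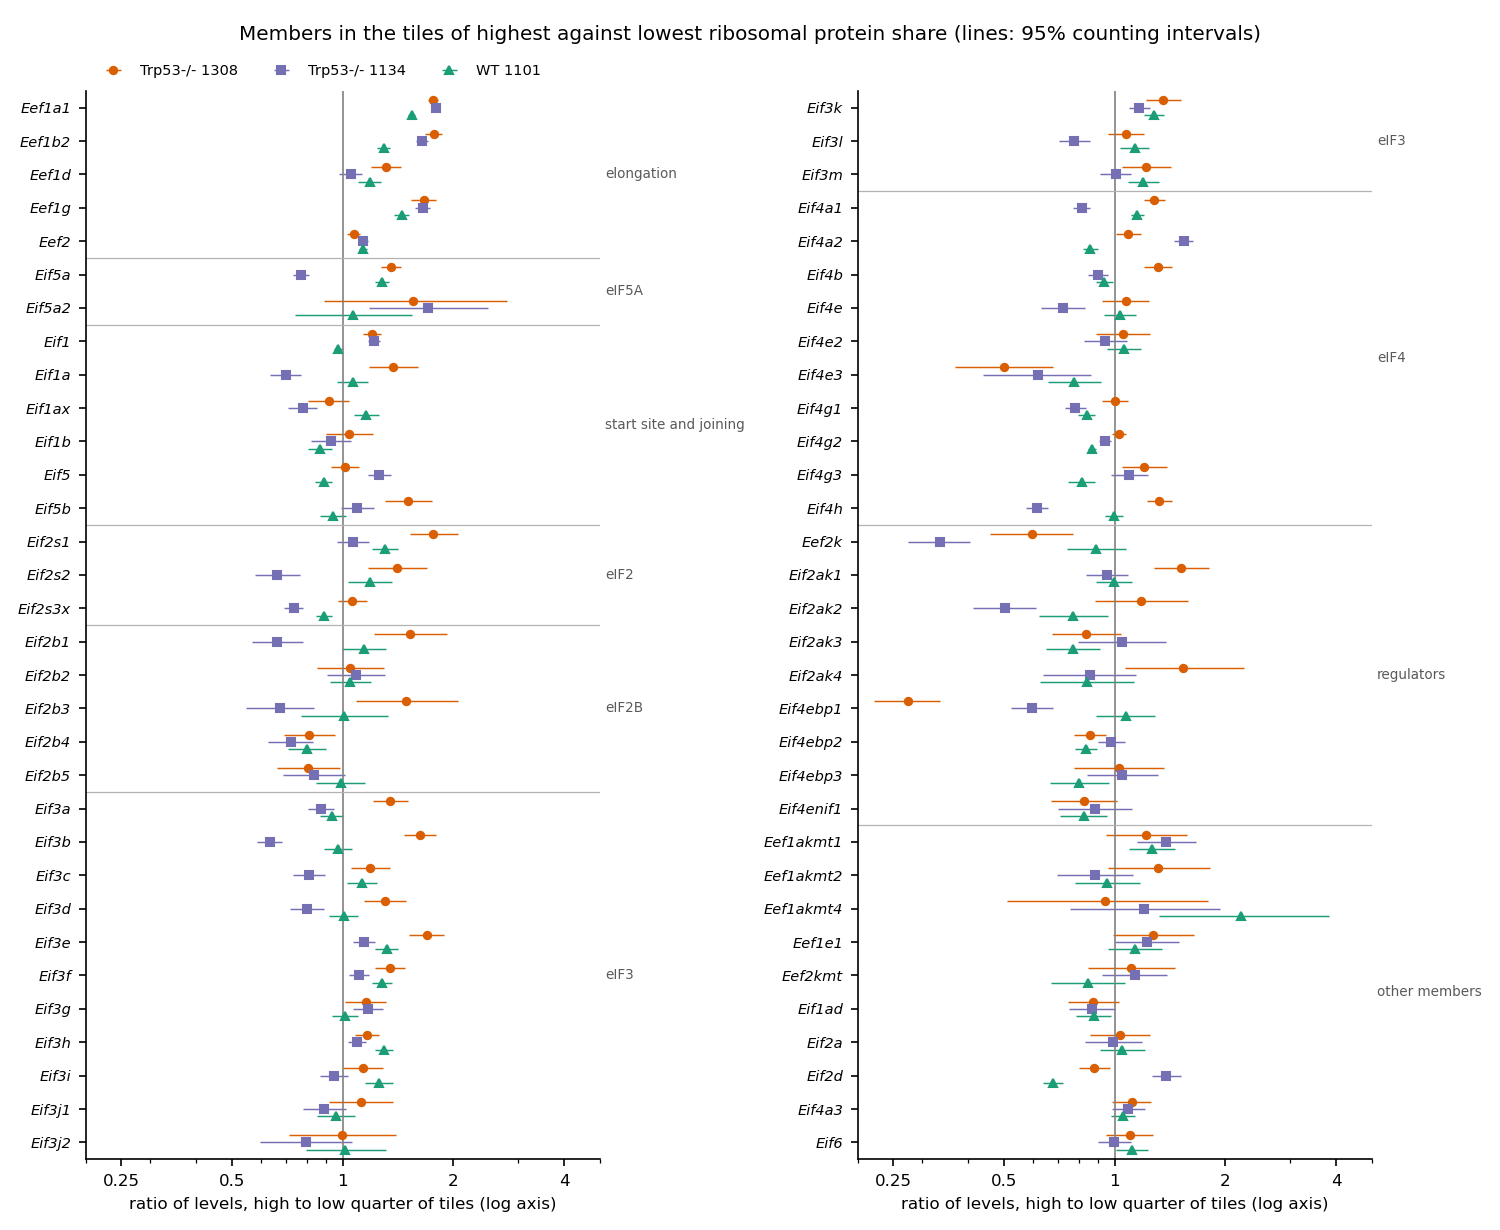
Ratio of each member's level in the high tiles to that in the low tiles, ranked by ribosomal protein share (log axis), 1 point per section with 95% counting intervals, by role. Eef1a1, Eef1b2 and Eef1g lie between 1.29 and 1.79 in all 3 sections, while most initiation factors straddle 1.

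The B-gene-rich bins of the KO sections had the highest elongation levels of the regions, although their ratios to the thymus area were below the tile folds of all tissue. Elongation factors reached 5303 CPM there in KO1308 and 6947 in KO1134, 1.23 and 1.45 times the thymus area of the same section, and the RPG share was 15.4% and 19.6% (1.49 and 1.40 times). Initiation factors were lower, at 6293 and 6299 CPM, 0.923 and 0.862 times. Of the elongation factors, 3 of 5 were at least 25% higher in each section, where 22.2% and 19.4% of 15752 genes were. Of the 38 initiation factors, 4 and 2 were higher and 12 and 20 at least 20% lower, where 43.0% and 45.5% of genes were lower. Their median ratios were 0.927 and 0.784, beside 0.872 and 0.845 over all genes. Initiation factors thus stood above the median gene in KO1308 and below it in KO1134.

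The same elongation genes led in both sections. Eef1a1 had 2586 CPM in the B-gene-rich bins of KO1308 and 3667 in those of KO1134 (1.41 and 1.74 times), Eef1g had 531 and 719 CPM (1.56 times in each) and Eef1b2 had 950 and 1026 CPM (1.28 and 1.51 times). Eef2 was at 0.872 and 1.02 times and Eef1d at 0.902 and 0.940 times, without a rise in either section, whereas Eef1d was higher in the high tiles of KO1308. Eef2k, the kinase of eEF2, was low, at 0.429 (0.227 to 0.742) and 0.213 (0.166 to 0.270) times the thymus area.

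The eIF4A helicases differed in direction there. Eif4a2 was higher in B-gene-rich bins, at 1.23 (1.10 to 1.37) and 1.58 (1.51 to 1.66) times, and Eif4a1 was lower, at 0.775 (0.695 to 0.863) and 0.656 (0.623 to 0.689). Of their joint UMIs, Eif4a2 made up 38.7% in the thymus area and 49.9% in the B-gene-rich bins of KO1308, and 35.4% and 57.0% in KO1134. The thymus area of WT stood at 39.4%, and WT had no B-gene-rich bins. The share was also higher than in the thymus area in the adipocyte-gene-rich bins (57.8% and 45.0%) and in the remaining tissue of the 3 sections (53.6%, 48.9% and 50.8%), so that it was not particular to B-gene-rich bins. The cofactor Eif4h was at 0.588 and 0.458 times.

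Adipocyte-gene-rich bins were poor in nearly every member. Elongation factors had 1692 CPM in KO1308 and 2889 in KO1134 (0.391 and 0.605 times the thymus area), initiation factors 3295 and 4558 CPM (0.483 and 0.624 times), and RPGs 3.71% and 9.41%. Of 64 members, 60 and 53 were at least 20% lower, where 77.3% and 67.4% of 15473 genes were, and 2 were at least 25% higher in each, where 14.1% and 15.7% were. The median ratios of members were 0.464 and 0.628, above those of all genes (0.365 and 0.592), so that the typical gene was lower still. Initiation and elongation factors were thus both low, unlike in the B-gene-rich bins.

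The exception was Eif4ebp1, a gene known for its high expression in fat. It had 320.2 CPM in adipocyte-gene-rich bins of KO1308 and 303 in those of KO1134, against 18.9 and 52.6 in the thymus area, or 16.9 times (14.3 to 20.0) and 5.75 times (5.05 to 6.54). The other higher gene was Eef2kmt, a methyltransferase of eEF2, on 32 and 31 UMIs, at 1.503 (1.0096 to 2.17) and 1.40 times (0.941 to 2.01), named after its values were seen. Eif5a2 had 0 UMIs in the adipocyte-gene-rich bins of both sections, which at 3 UMIs allows up to 3.08 and 3.01 CPM.

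Between medulla-gene-rich and cortex-gene-rich bins the members differed little when both were set by the ratio of the WT thymus area, a limit that put 12181 bins of KO1308 and 7870 of KO1134 in the medulla and 1211 and 779 in the cortex. The ratio of medulla to cortex was 1.02 in KO1308, 1.02 in KO1134 and 0.935 in WT for elongation factors, and 0.954, 0.939 and 0.947 for initiation factors. Of 65 members, 5, 5 and 2 were at least 25% higher, where 33.1%, 29.6% and 26.9% of 16750 genes were, and 4, 5 and 2 at least 20% lower, where 17.7%, 14.1% and 9.01% were. eIF5A was lower in the medulla in every section, at 0.828, 0.835 and 0.805 times.

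With each section's own limit, chosen after seeing the data, the KO sections differed more between the regions. Initiation factors were then at 6253 CPM in the medulla and 7210.3 in the cortex of KO1308, and at 6673 and 7659.96 in KO1134. Elongation factors were at 4309 and 4339 CPM in KO1308 and at 5098 and 4595 in KO1134, level in the first and higher in the medulla of the second. eIF5A was again lower in the medulla, at 416 against 609.9 CPM in KO1308 and 469 against 605 in KO1134.

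**Figure D5:**
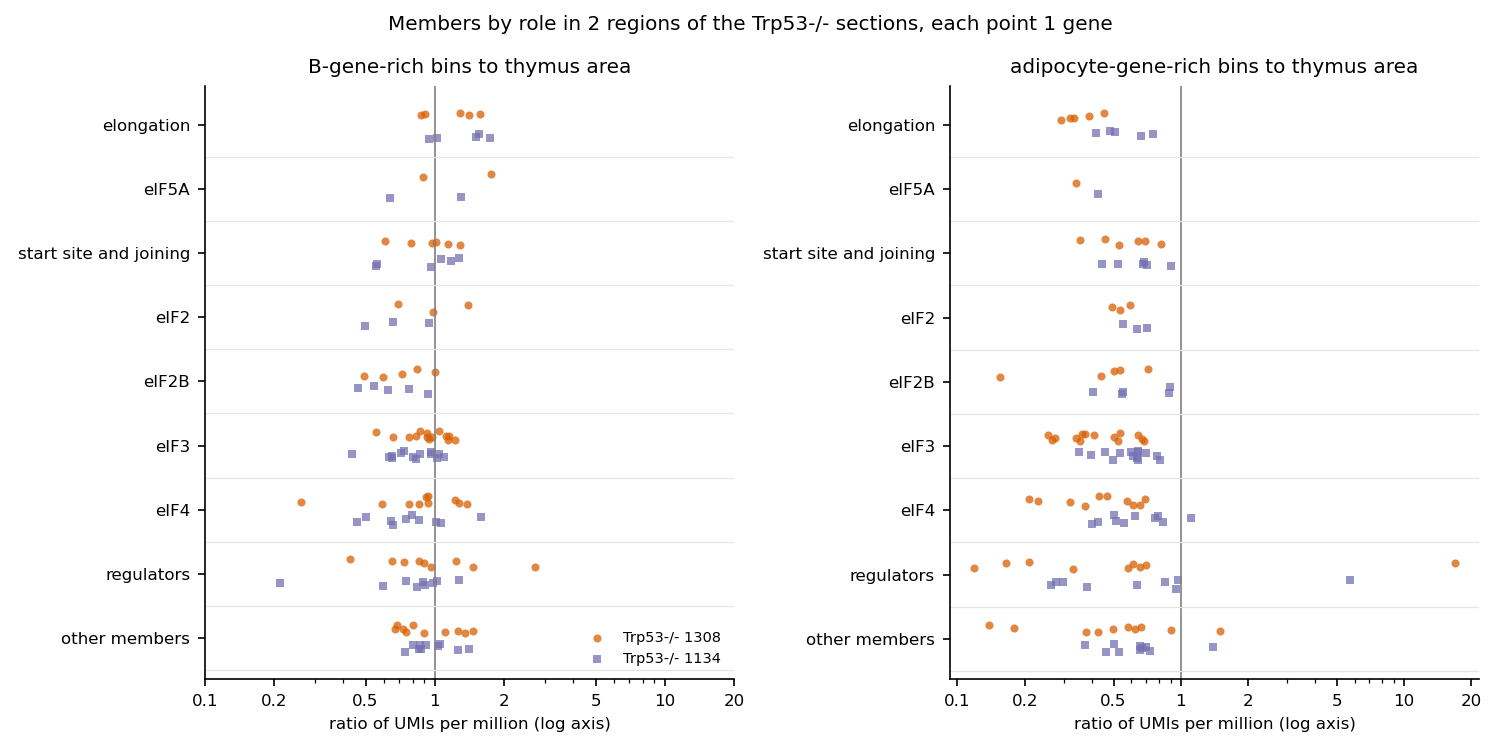
Ratio of each member's level in B-gene-rich bins (left) and adipocyte-gene-rich bins (right) to the thymus area of the same Trp53-/- section (log axis), 1 point per gene, by role. Elongation factors reach 1.74 on the left, and on the right nearly all points lie below 1 except Eif4ebp1 at 16.9 and 5.75 and a few others. Genes with 0 UMIs in a region are not drawn.

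Beside the members, 9 other mRNAs known to carry an oligopyrimidine tract (among them Pabpc1, Tpt1 and Rack1) were also above WT, at a summed 8560.2 CPM in KO1308, 9137 in KO1134 and 7490.3 in WT (1.14 and 1.22 times). Of these, 3 were at least 25% higher and 1 at least 20% lower in KO1308, and 2 and 0 in KO1134, shares of higher genes below the 43.2% and 37.3% of all genes. Over the tiles they followed the RPG share in every section, with folds of 1.505, 1.35 and 1.30 and rho of 0.859, 0.871 and 0.901. The 8 mTORC1 genes summed to 0.877 and 0.986 times WT, with 0 and 1 higher and 3 and 4 lower past the limit, where 21.8% and 30.9% of all genes were lower. The 2 release factor genes stood at 0.947 and 1.18 times.

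The 5 genes of the integrated stress response, which phosphorylated eIF2 switches on, summed to 1.42 and 1.41 times WT. Of the 4 evaluated, 3 were higher and 1 lower in KO1308, and all 4 were higher in KO1134, where 43.2% and 37.3% of all genes were higher. Atf4, its central transcription factor, had 185 CPM in KO1308, 161 in KO1134 and 118 in WT. The transcription factor gene Myc had 156, 76.5 and 39.4 CPM, 3.95 and 1.94 times WT. Its part in the levels of the members was not tested.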

How the data were processed

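UMI counts per gene and spot, deposited by the authors for each section apart, were used as they stand. The authors made them with BSTMatrix and STAR against GRCm38, per the labels, and replicates were not pooled. Spots (4.8 µm apart) were summed into bins of 27 µm, keeping bins with at least 300 genes, at most 30% mitochondrial UMIs and at least 200 connected bins. Regions were set from marker UMIs in the surrounding 7 by 7 bins. In B-gene-rich bins the 3 B cell genes (Ms4a1, Cd79a, Cd79b) outnumbered the thymus genes by UMIs, the thymus area had at least 50% of its section's share of thymus genes, and of the rest, bins with at least 2000 CPM of adipocyte genes were adipocyte-gene-rich. Thymus bins were medulla-gene-rich above a ratio of medulla to cortex genes of 0.0441, that of the WT thymus area, and otherwise cortex-gene-rich. Bins with Cd3d, Cd3e or Cd3g above 2 on the log(1 + UMIs per 10000) scale were taken as bins with Cd3 RNA. Levels are UMIs of a gene per 1000000 UMIs of the region (CPM). UMIs were summed per section and region, since bins are not replicates. Levels have exact Poisson intervals and ratios exact conditional binomial intervals (95%, counting error only). Members and background genes were evaluated with at least 100 UMIs summed over the sections compared, and 25% above or 20% below the reference was the limit of size.

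The members, gene lists and regions were chosen with earlier results of these data known. Genes were named by a rule (all elongation factors, listed initiation factors and regulators, and the 5 largest and 5 smallest ratios and tile folds), and those outside it are said to be so. How the counting treated reads shared with paralogues and processed pseudogenes is not given in the sources used here, so levels of Eef1a1 and others with many pseudogenes are uncertain. Analyses used Python 3.11.15, numpy 2.4.6, scipy 1.17.1 and pandas 2.3.3. On simulated counts for 16731 genes, 95.6% of intervals held the true ratio in both comparisons with WT. These counts were drawn as Poisson, as the intervals assume, so that they check the calculation only and not the spread between mice. Of the genes simulated without a change, 9.07% passed the limit of size in KO1308 and 6.45% in KO1134. Alternatives were other bin widths, gene limits, denominators, regions, depths, tile sizes, the group without Eef1a1, and leaving out each section. A gene of the oligopyrimidine list is not reported here and was left out of its sums.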

Additional observations from a re-analysis of the deposited data

How the results depend on the processing

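Of 104 alternatives to 9 summary values, 96 stayed within the spread between sections or, for counts of members, within 1.5 times. The other 8 moved further. For elongation factors the mean KO to WT ratio was 1.18 in medulla-gene-rich bins set by each section's own limit, a limit chosen after seeing the data. The mean tile fold of elongation factors was 1.245 with thymus area bins alone, 1.58 with RPGs outside the denominator and 1.30 without Eef1a1. Their mean rho was 0.707 with tiles of 5 by 5 bins, 0.704 with thymus area bins alone and 0.634 without Eef1a1. The mean rho of initiation factors, -0.0414, changed sign in some alternatives. It was 0.0687 with thymus area bins alone and 0.215 with RPGs outside the denominator. RPGs take up part of the total, so that the denominator bears on the values without RPGs by construction. For the others the cause was not tested. Leaving out 1 section at a time gave mean KO to WT ratios of 1.03 to 1.14 (elongation), 0.871 to 0.934 (initiation) and 1.06 to 1.43 (RPGs). The same gave mean tile folds of 1.43 to 1.52 (elongation) and 0.976 to 1.09 (initiation), and a mean rho of 0.799 to 0.852 (elongation) and -0.149 to 0.0576 (initiation). Without KO1134, the RPG ratio is 1.06. Members past the limit of size ranged from 19 to 28 in KO1308 and from 28 to 35 in KO1134 over alternatives chosen after seeing the data. For these counts the shares of all genes are given, above, for the main setting alone. No paired analysis was possible because WT has 1 section and shares only 1 replicate number with the KO group. Intervals cover counting error, and 1 WT mouse gives no spread for WT.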

Other observations

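In spots outside the kept tissue bins, elongation factors were at 3536 CPM in KO1308, 4104 in KO1134 and 3293 in WT, and initiation factors at 5238, 6841 and 6787 CPM. Both were below the thymus area of the same section, and elongation factors had the same order of sections there as in the tissue.

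Paralogue pairs kept unlike shares over the 3 thymus areas. Eif1b made up 13.5% of the UMIs of Eif1 and Eif1b in KO1308, 9.05% in KO1134 and 12.01% in WT. Eif4g3 made up 25.1%, 22.9% and 27.1% of Eif4g1 and Eif4g3, and Eif4g2 77.5%, 75.4% and 81.4% of Eif4g1 and Eif4g2. Eif5a2 stood at 1.44%, 1.62% and 1.38% of Eif5a and Eif5a2. The exact binomial intervals of the eIF5A pair overlap between all 3 sections (1.18 to 1.74, 1.40 to 1.85 and 1.22 to 1.55), so that their order is within counting error. WT lay above both KO sections for the eIF4G pairs and between them for Eif1b.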
